A study of Mus musculus with 2 samples.

Results

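Olfactory receptor genes of mouse chromosome 7 were examined for methylated DNA in testis. The set held every protein-coding gene of the GRCm38.p6 annotation (the assembly of mm10) whose symbol starts with Olfr and whose start lies on chromosome 7 between 102000001 and 109000000. This gave 193 genes of 21887 protein-coding genes, and each gene was measured over its span plus 1 kb on each side. The stretch was labelled as class I receptors, and the older family names in the annotation (MOR, a family number and a member number) bore this out for part of it. Class I genes carry low family numbers in that scheme, below 100, and class II genes carry higher ones. Of the 193 genes, 123 had a number below 100, 64 had one of 100 or above, 1 (Olfr605) had both kinds and 5 had none. The widest gap between gene starts, 1309 kb, separated 126 genes on the centromere side from 67 on the other side. Of the 126, 121 carried a low number and 0 a high one, whereas 64 of the 67 carried a high number and 2 a low one. The set is therefore called the chromosome 7 receptor genes below, and the low-number genes the class I genes.

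Olfactory receptors are G protein-coupled receptors that bind odorants on the cilia of olfactory sensory neurons, and each neuron expresses a single receptor gene from a single allele. The class I family is the one shared with fish, and in mouse its genes sit in a cluster that surrounds the beta globin locus. The coding sequence usually lies in 1 exon and is poor in CpG, the dinucleotide that carries methylation in mammals. Outside the nose most of these genes are silent, though a few are known from other organs, among them Olfr78 in vascular smooth muscle and the carotid body.

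Sheared testis DNA was captured with the methyl-CpG binding domain of MBD2 and sequenced, so the counts report methylated fragments and not RNA. The series held 1 library of a Kaiso knockout male (C57BL/6, labelled as sterile and as generation 3 offspring) and 1 library of a wildtype C57BL/6 mouse. Zbtb33 encodes Kaiso, which recognises methylated CpGs through zinc fingers. The sample text of the knockout library also calls its testis wildtype, so each knockout value rests on the genotype label. Ages and the deleted part of the allele are not given in the sources used here. As a check of the label, Zbtb33 had 83 knockout and 303 wildtype counts over 16 listed windows, a log2 ratio of -2.04 (95% interval -2.81 to -1.32). This checks the label only weakly, because methylated fragments and not copies of the allele are counted, and the deleted part is not known.

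The knockout library held 98549116 reads and the wildtype library 87710791. Counts were deposited for 2537435 windows of 100 bp, each with an authors' p-value below 0.05, so a window absent from the table was not shown to be unchanged and ratios in listed windows are pushed away from 1. Adjacent windows share fragments, and window counts summed over a gene were divided by 4 to approximate fragments. A gene needed 20 fragments, both libraries together, to be considered. It was then called if its ratio per library read reached 2 (higher in knockout) or fell to 0.5 (lower) and the 95% interval left out 1. There is only 1 library per genotype, so no difference here could be checked against replicates. The intervals reflect counting error alone, since PCR copies are not independent molecules.

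Windows that passed the p-value filter were listed at about as many of these genes as not. A gene without one may still carry methylated DNA, since the filter keeps windows that differ between the libraries. Of the 193 genes, 93 had no listed window, 24 had one but stayed under 20 fragments, and 76 had the minimum. A listed window was thus held by 51.8% of the set, against 90.8% of all protein-coding genes and 39.1% of the other Olfr genes. Among genes outside the Olfr family with a span of at most 2 kb, a comparison chosen after the values were seen, it was 60.8%. Class I genes more often had listed windows, with 78 of 123 holding a window and 63 the minimum, against 18 and 10 of the 64 genes of high family number. The 505 windows of the set, 50.5 kb in all, made up 6.75% of the windows that tile the gene regions, against 12.1% over all protein-coding genes. Their median was 43 knockout and 25 wildtype counts, against 40 and 39 over all listed windows. The relative methylation score deposited by the authors, on a scale that no source explains, had medians of 0.166 in knockout and 0.137 in wildtype over these windows, against 0.153 and 0.186 over all listed windows.

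Receptor genes parted in both directions. Of the 76 genes with the minimum, 21 (27.6%) were higher in the knockout library, where 9.64% of all 19225 protein-coding genes were called so, and 17 (22.4%) were lower, where 5.63% were. The other 38 were called neither way. The median log2 ratio of the 76 genes was 0.47 (order-statistic interval -0.063 to 0.67), and that of all protein-coding genes was 0.31. Each window counted once, the set held 26912 knockout and 15785 wildtype counts, a log2 ratio of 0.60 (0.54 to 0.66), against 0.26 over all protein-coding genes. These regions are small, with a median of 102.4 fragments against 806 over all genes. Among 843 protein-coding genes outside the Olfr family with a span of at most 2 kb, a comparison chosen after the values were seen, 45.8% were higher and 12.0% lower.

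The split depended on the scaling of the libraries. It was 21 higher and 17 lower by library reads, 23 and 12 with the authors' offset, 20 and 24 with TMM, 17 and 26 with autosomal counts, 18 and 20 within CpG classes, and 15 and 26 with CpG-rich windows (5 or more CpGs) centred on a log2 ratio of 0. The calls over all protein-coding genes moved the same way, from 11.7% higher and 4.81% lower with the authors' offset to 4.68% higher and 12.0% lower with CpG-rich windows centred on 0. The median of all genes was 0.31 by library reads, and in the same order of scalings 0.44, 0.13, 0.034, -0.0076 and -0.36. The receptor median lay 0.17 above that of all genes under each scaling except within CpG classes, where it lay 0.20 above. The repeated 0.17 holds by arithmetic, since a single constant moves both medians alike. With other regions, by library reads, the difference was 0.20 over gene spans alone, 0.052 with 5 kb flanks and -0.026 at the gene ends. All 21 higher and all 17 lower genes kept their direction under the 5 scalings other than library reads, and 15 and 12 of them kept the call. Except within CpG classes, each scaling moves every ratio by a single constant smaller than the 2-fold limit. Under those scalings the kept direction follows from the call rule and is no support.

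Of 18 germ cell genes that carry methylation in somatic cells, 7 were higher and 0 lower over the gene span plus 1 kb, with a median of 0.72. Within 1 kb of their gene ends 15 of the 18 were higher and the median was 2.84. At the ends of the receptor genes 20 of 71 were higher and 16 lower, with a median of 0.47. Over all protein-coding genes 22.5% were higher and 13.3% lower there, of 14846 with the minimum, and the median was 0.50. The range over gene spans was -0.029 for Ddx4 to 3.33 for Sycp3, the gene of a synaptonemal complex protein. A mix of cell types and a change per cell cannot be told apart in such bulk DNA, and the part of this list in the receptor values was not tested.

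**Figure D1:**
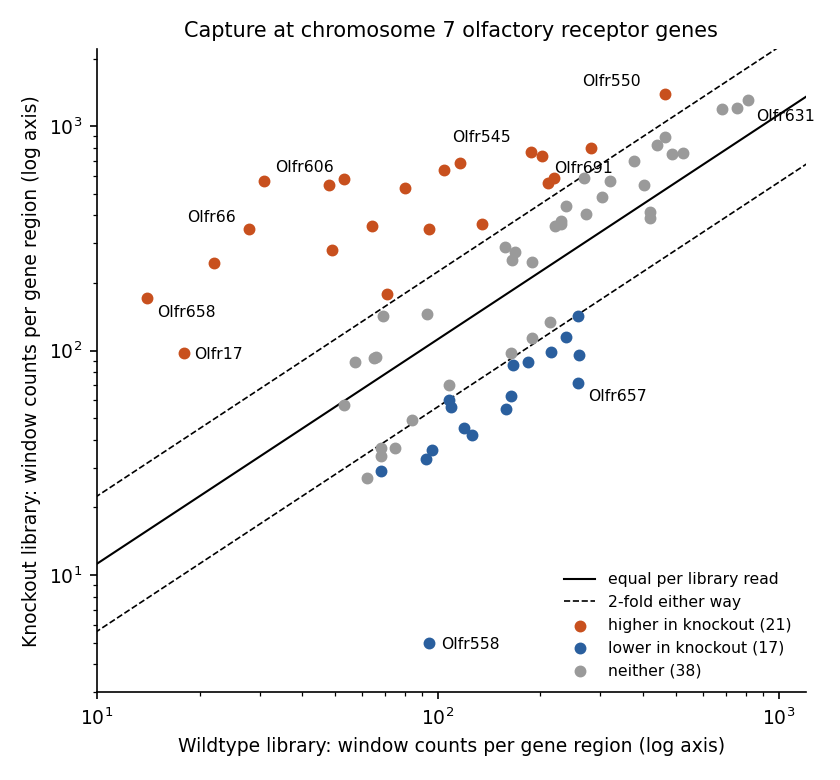
Window counts of each receptor gene with at least 20 fragments, in the knockout library (vertical, log axis) against the wildtype library (horizontal, log axis). Olfr606 had 572 knockout and 31 wildtype counts, Olfr558 had 5 and 94, and most of the 38 grey genes lie between the dashed 2-fold lines.

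The highest gene was Olfr606, a class I gene of family 17 at chr7:103451339-103452298 on the plus strand. It had 572 counts in the knockout and 31 in the wildtype library, which is 16.4-fold higher (log2 4.04, 3.01 to 5.30). Along its 10 adjacent windows the knockout counts were 32, 50, 66, 87, 88, 84, 73, 49, 30 and 13, while the wildtype counts ran between 1 and 5. The knockout library thus held a single peak over the gene and the wildtype library next to nothing. Olfr605, its neighbour, had 579 knockout and 53 wildtype counts (log2 3.28, 2.47 to 4.22). Olfr633 had 547 and 48 (3.34, 2.49 to 4.33), and its window with 5 CpGs from 103946901 held 82 knockout and 2 wildtype counts. In these 3 genes each listed window was higher in the knockout library, and each overlapped the gene span.

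Other strongly higher genes had fewer counts. Olfr66 lies beside the beta globin genes, as its older name 5'beta1 records, and had 349 knockout and 28 wildtype counts (3.47, 2.37 to 4.83). Its 6 windows lay upstream of the gene and not over it, from 103882701 to 103883300, with 15 CpGs in 1 of them and a mean of 4.33. Olfr658 had 171 and 14 counts (3.44, 1.90 to 5.55). Olfr6, a class II gene known as M50, had 246 and 22 (3.31, 2.07 to 4.89). Its 4 windows lay downstream of the gene, from 106954901 to 106955300, so neither Olfr66 nor Olfr6 had a listed window over the gene itself. Olfr554 followed with 2.56 (1.88 to 3.32), Olfr601 with 2.45 (1.84 to 3.10), Olfr599 with 2.39 (1.81 to 3.01) and Olfr571 with 2.32 (1.55 to 3.19). Over all 21 higher genes the median was 547 knockout and 80 wildtype counts, and in 18 of them each listed window pointed the same way. This was also so in 26 of the 38 genes called neither way. Adjacent windows share fragments and the call sums these same windows, so their agreement is no support for a call. The wildtype library averaged between 2.0 and 40.1 counts per window over these genes and the knockout library between 24.4 and 114.

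**Figure D2:**
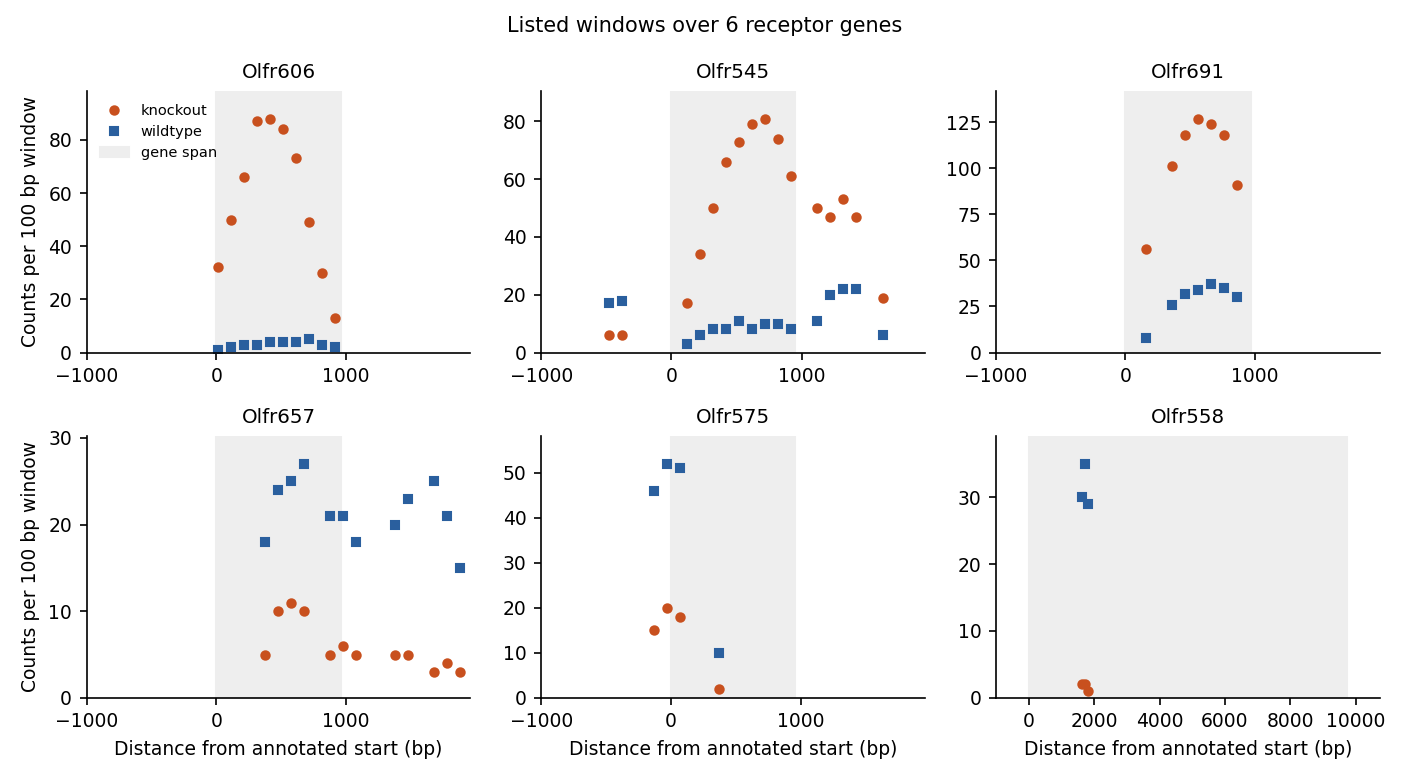
Counts per listed 100 bp window of the knockout library (orange circles) and the wildtype library (blue squares) against the distance from the annotated start of 6 receptor genes, in the direction of transcription, with the gene span shaded. Knockout counts rise to 88 over Olfr606 and 127 over Olfr691, whereas Olfr657, Olfr575 and Olfr558 hold more wildtype than knockout counts in every listed window.

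The lower genes were measured with fewer counts. Olfr558, the receptor of isovaleric and other carboxylic acids that is also known from blood vessels, had 5 knockout and 94 wildtype counts, 21.1-fold lower (log2 -4.40, -8.86 to -1.99). Its 3 adjacent windows held 2, 2 and 1 knockout counts and 30, 35 and 29 wildtype counts, so this call rests on 300 bp of a gene that spans 102702323 to 102712054. With a minimum of 40 fragments Olfr558 is not called. Olfr657 rested on more windows, 12 of them, with 72 knockout and 258 wildtype counts (log2 -2.01, -2.85 to -1.24). Its windows ran from inside the gene into the downstream flank, and each was lower, with knockout counts of 3 to 11 and wildtype counts of 15 to 27.

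Olfr685 had 96 knockout and 260 wildtype counts (-1.61, -2.35 to -0.91), and Olfr575 had 55 and 159 (-1.70, -2.70 to -0.78). Olfr583 (-1.75), Olfr669 (-1.57), Olfr517 (-1.55), Olfr683 (-1.29), Olfr678 (-1.22) and Olfr2 (-1.21) were lower as well. Olfr2 encodes the receptor I7, known for its response to octanal, and had 115 knockout and 237 wildtype counts. In all 17 lower genes each listed window was lower, but these were 2 to 12 windows per gene, and the call sums these same windows. Lower genes held a mean of 1.25 to 2.5 CpGs per window (median 1.67), and higher genes 1.75 to 4.33 (median 2.36). The median was 60 knockout and 159 wildtype counts over the lower genes.

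Receptors studied for their ligands stood on both sides. Olfr545 and Olfr544, both of family 42 and known to respond to dicarboxylic acids, are near neighbours. Olfr545 had 763 knockout and 188 wildtype counts (1.85, 1.39 to 2.35), with 14 windows higher and 2 lower, the last 2 lying upstream of the gene. Olfr544 had 587 and 269 (0.96, 0.53 to 1.40), just under the 2-fold limit. It had 8 windows higher within the gene and 2 lower downstream, and over the gene span alone it was called higher at 1.29. Olfr691 had 735 and 202 (1.70, 1.24 to 2.17), and knockout counts of 56 to 127 against wildtype counts of 8 to 37 per window. Olfr692, beside it, had no listed window. Olfr17, the P2 receptor used to trace the wiring of the olfactory bulb, had 98 and 18 (2.28, 0.81 to 4.13). Olfr78, known as a receptor of short-chain fatty acids, had 388 and 420 (-0.28, -0.70 to 0.13), and 4 of its 11 windows were higher and 7 lower. Of the 7 lower windows, 4 also lie in the region of Olfr560, a gene within its span that was lower at -1.12.

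The 3 genes with the most fragments were called neither way, while Olfr550, with 463 fragments, was higher at 1.41 (1.10 to 1.73). Olfr631 had 1306 knockout and 812 wildtype counts (0.52, 0.26 to 0.78), Olfr687 had 1206 and 754 (0.51, 0.24 to 0.78), and Olfr648 had 1189 and 683 (0.63, 0.36 to 0.91). Most counts of Olfr631 came from 8 adjacent windows with 4 to 10 CpGs each, where the knockout counts were 121 to 168 and the wildtype counts 76 or more. Its mean of 5.82 CpGs over 11 windows was the highest of the 76 genes. Olfr687, which spans 48745 bp, held 16 higher and 15 lower windows. In all, 15 of the 76 genes held windows of both directions.

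Near the limits the calls turn on small steps. Olfr481, the higher gene nearest to 2-fold, had 1.16 (0.33 to 2.04), and Olfr544 and Olfr624, just inside, had 0.96 and 0.88. Olfr559 at -1.02 (-2.03 to -0.054) was the lower gene nearest to the limit, while Olfr598 at -1.37 (-2.92 to 0.019) was not called because its interval reached past 0. Olfr629, just under the minimum with 19 fragments, had 15 knockout and 61 wildtype counts, and Olfr598, just over it, had 22.2 fragments.

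Several stretches held called genes of 1 direction, and the longest are given here. How long such runs are among other genes was not tested. In map order, and leaving out genes under the minimum, the first 10 genes from Olfr543 to Olfr554, over 164 kb, ran from 0.26 to 2.56, and 4 of them were higher. The next 6, from Olfr555 to Olfr560 over 101 kb, ran from -4.40 to -0.28, and 5 were lower. The 8 genes from Olfr599 to Olfr613, over 217 kb, ran from 0.47 to 4.04, and 6 were higher. The 9 genes from Olfr624 to Olfr641, a stretch that holds the beta globin locus, ran from 0.40 to 3.47, with 2 higher. Within that stretch Olfr629 (-2.19) and Olfr64 (-1.46), both under the minimum, went the other way, and the globin gene Hbb-y was called lower (-2.36). From Olfr678 to Olfr685 there were 5 genes between -1.61 and -0.84, and 3 were lower. Some of the genes called neither way in these runs turned sign under another scaling. The called ones did not, which the 2-fold limit largely fixes in advance.

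**Figure D3:**
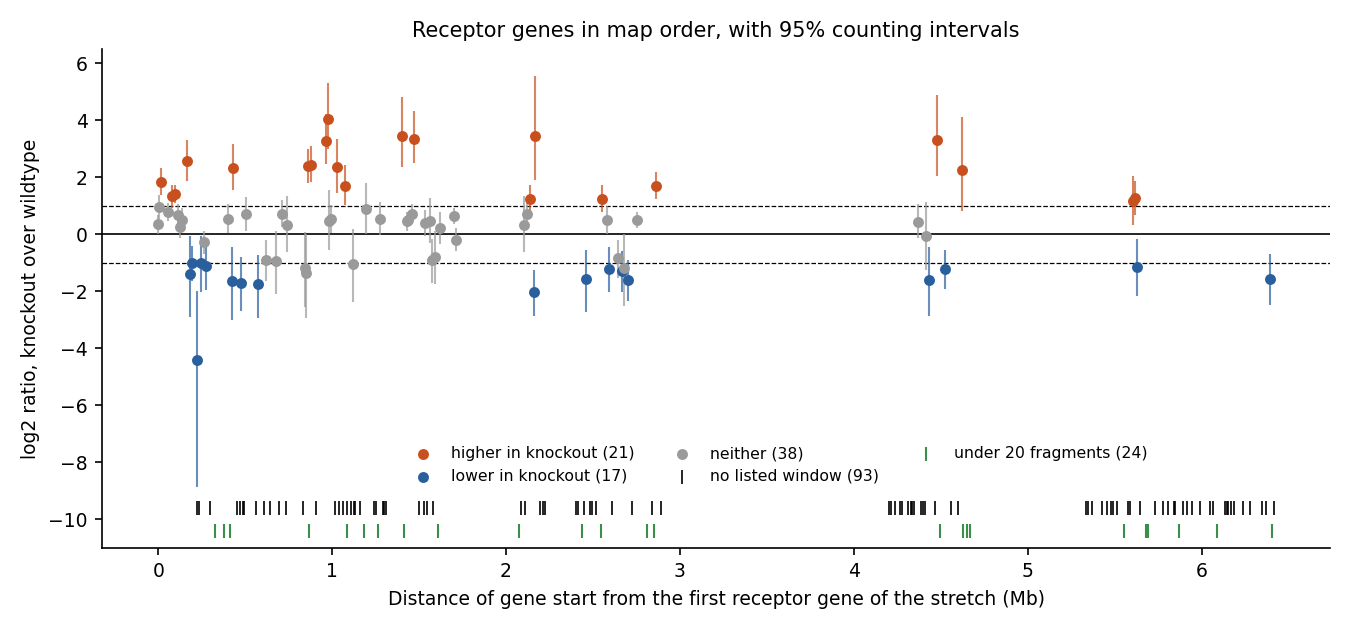
Log2 ratio of knockout over wildtype of each receptor gene with at least 20 fragments (points, with 95% counting intervals) by the distance of its start from the first receptor gene in Mb. Orange points (21) were higher and blue points (17) lower in the knockout library, and ticks at the foot mark the 93 genes without a listed window and the 24 under 20 fragments.

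Some families held genes on both sides of 0 and others lay on 1 side. By library reads, the genes at the minimum all lay above 0 in families 33, 42, 1, 12, 17 and 25. They all lay below 0 in families 40, 8, 18 and 260. Whether families differ in this from unrelated genes was not tested. Family 31, with 6 of 11 genes at the minimum, had 2 higher (Olfr691 at 1.70 and Olfr549 at 1.34) and 0 lower, and Olfr618 at -1.05 was the lowest, while 1 or 2 were higher and 0 or 1 lower under the other scalings. Family 32, with 6 of 11, had Olfr676 higher at 1.24 and Olfr678 lower at -1.22, with 0 or 1 higher and 1 or 2 lower under the other scalings. Family 14 had 4 of 8 at the minimum with 0 higher and 2 lower (Olfr583 at -1.75 and Olfr560 at -1.12), and 1 to 3 were lower under the other scalings. In family 40, 3 of 9 had the minimum, 0 were higher and 2 were lower, Olfr657 and Olfr683, and 2 or 3 were lower under the other scalings. Family 23 held Olfr599 at 2.39 beside Olfr597 at -1.17 and Olfr598 at -1.37, both called neither way here and both lower with TMM, autosomal counts or CpG-rich windows centred on 0. Family 204, a class II family with 31 genes, had only 3 at the minimum, with Olfr481 and Olfr482 higher (1.16 and 1.27) and Olfr483 lower (-1.13), and each of these calls was lost under at least 1 other scaling.

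Windows richer in CpG were more often higher. Of the 505 windows, 62.2% were higher in the knockout library (exact Clopper-Pearson interval 57.8 to 66.4%), against 56.5% of all listed windows. With 1 CpG the share was 43.3% of 178 windows (35.9 to 50.9%), against 37.8% of all listed windows of that kind. With 2 CpGs it was 60.8% of 171 (53.1 to 68.2%), against 49.2%. With 3 CpGs it was 77.5% of 89 (67.4 to 85.7%), against 71.0%, and with 4 or more 95.5% of 67 (87.5 to 99.1%), against 95.4%. Of these 4 classes, the interval at 2 CpGs leaves out the share over all windows of its kind and the other 3 hold it. Windows of one gene share fragments, so these intervals are too short. Higher receptor windows had a median log2 ratio of 1.42, against 0.69 over all higher windows. Lower ones had -1.75, against -1.70. With few counts a window enters the table only at a large ratio, and the wildtype median here was 25 counts, against 39 over all listed windows. The part of this in the sizes was not tested.

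The direction also varied along the gene. The span of the gene held 387 of the 505 windows, and 266 of these (68.7%) were higher in the knockout library. Upstream flanks, in the 170 genes whose strand was given, held 50 windows, of which 12 (24.0%) were higher and 38 lower. Downstream flanks held 57, of which 31 (54.4%) were higher. Listed windows made up 11.1% of the windows tiling the spans, 2.94% of those upstream and 3.35% of those downstream. Among windows with 1 or 2 CpGs, 150 of 261 (57.5%) were higher in the span and 6 of 38 (15.8%) upstream. With 3 or more CpGs, 116 of 126 were higher in the span and 6 of 12 upstream. Shares by place were not computed for other genes, so the difference is not shown to be particular to these receptors. Median counts were 53 knockout and 26 wildtype in the span, and 12 knockout and 26 wildtype upstream.

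**Figure D4:**
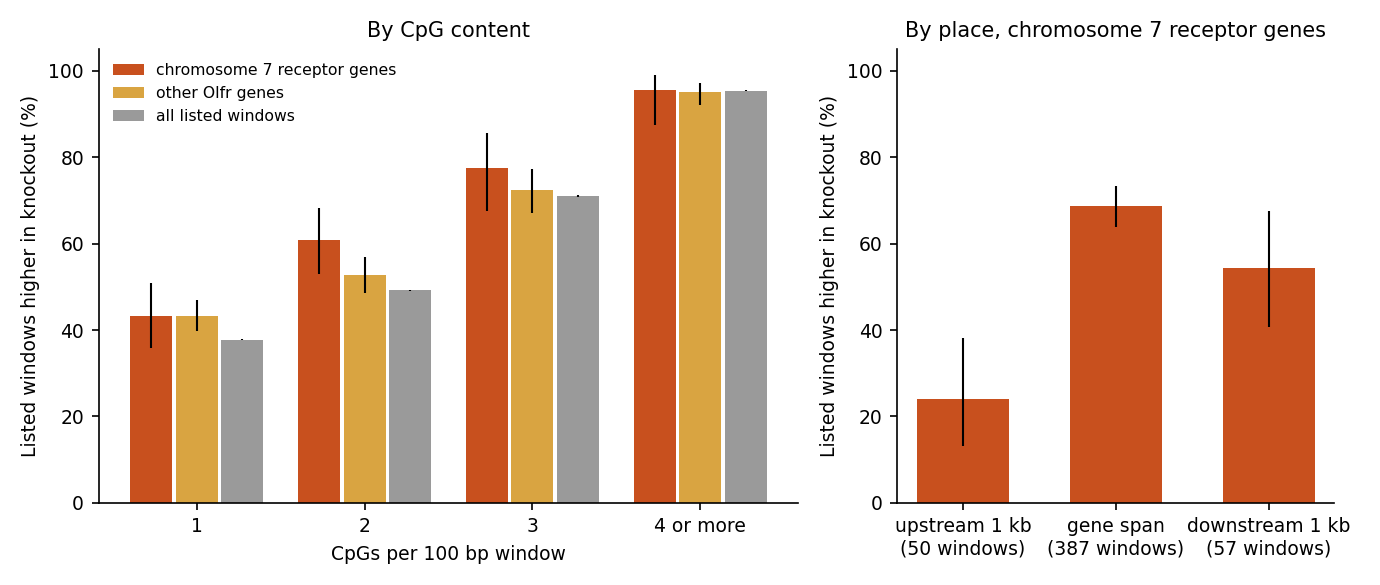
Share of listed windows that were higher in the knockout library, in percent with exact 95% intervals, by CpGs per window (left, for the chromosome 7 receptor genes, other Olfr genes and all listed windows) and by place in the chromosome 7 receptor genes (right). The share runs from 43.3% with 1 CpG to 95.5% with 4 or more, and is 24.0% upstream against 68.7% in the gene span.

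Few starts held a listed window, here as at other olfactory receptor genes. RefSeq sequence of GRCm38.p6, 250 bases before to 50 after the annotated start, was matched by gene ID for 170 of the 193 genes. In 131 of these the start was the first base of an ATG, so for most genes the annotation begins at the coding sequence and the upstream exon is not in it. These sequences held a median of 1 CpG and at most 5, and 63 of them (37.1%) held none, against a median of 7 CpGs and 5.78% without one over 27025 genes. The other Olfr genes were alike in this, with a median of 1 CpG and 32.7% without one. A listed window overlapped 16 of the 170 (9.41%), against 10.2% of 774 other Olfr starts and 5959 of the 27025 starts of all genes (22.05%). The lower gene with the firmest bound among those 16, Olfr575, was added after the values were seen. The sequences below belong to it and to the 4 called genes with the firmest bounds among the 16. They are written 5′ to 3′ in the direction of the gene, with each CpG in capitals.
Olfr606, chr7:103451089-103451388, plus strand: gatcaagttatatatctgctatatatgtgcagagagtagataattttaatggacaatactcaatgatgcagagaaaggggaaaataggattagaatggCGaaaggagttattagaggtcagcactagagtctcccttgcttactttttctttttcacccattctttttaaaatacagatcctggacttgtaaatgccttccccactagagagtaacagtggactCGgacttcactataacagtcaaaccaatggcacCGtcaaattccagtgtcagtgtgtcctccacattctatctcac
Olfr601, chr7:103359164-103359463, minus strand: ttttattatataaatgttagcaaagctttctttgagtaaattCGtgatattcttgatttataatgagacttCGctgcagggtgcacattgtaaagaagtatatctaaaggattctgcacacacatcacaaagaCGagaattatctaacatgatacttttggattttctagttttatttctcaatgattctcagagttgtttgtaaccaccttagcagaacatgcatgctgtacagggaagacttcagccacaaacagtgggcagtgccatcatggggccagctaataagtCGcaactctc
Olfr599, chr7:103337762-103338061, plus strand: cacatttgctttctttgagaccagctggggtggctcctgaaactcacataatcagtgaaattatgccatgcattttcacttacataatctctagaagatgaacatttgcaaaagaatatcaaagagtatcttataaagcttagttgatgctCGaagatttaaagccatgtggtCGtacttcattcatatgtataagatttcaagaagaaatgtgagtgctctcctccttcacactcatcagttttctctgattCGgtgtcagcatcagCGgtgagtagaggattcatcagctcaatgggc
Olfr550, chr7:102578219-102578518, plus strand: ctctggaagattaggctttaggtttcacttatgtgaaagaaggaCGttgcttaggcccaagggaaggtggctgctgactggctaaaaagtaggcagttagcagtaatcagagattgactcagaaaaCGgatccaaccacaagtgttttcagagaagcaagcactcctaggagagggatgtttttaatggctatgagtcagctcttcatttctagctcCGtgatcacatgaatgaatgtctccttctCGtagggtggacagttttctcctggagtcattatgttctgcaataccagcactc
Olfr575, chr7:102955571-102955870, minus strand: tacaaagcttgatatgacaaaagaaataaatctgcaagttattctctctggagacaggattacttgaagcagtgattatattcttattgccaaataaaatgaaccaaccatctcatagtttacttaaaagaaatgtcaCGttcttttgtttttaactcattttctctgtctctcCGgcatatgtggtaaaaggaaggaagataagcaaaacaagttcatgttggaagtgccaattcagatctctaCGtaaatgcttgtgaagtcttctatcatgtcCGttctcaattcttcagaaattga

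Each of these sequences holds 3 or 4 CpGs, and the windows over them had the direction of the gene. Over the 16 starts as a whole the picture was different, with each window lower at 11 of them and each higher at 5. The window over bases 213 to 300 of the printed Olfr606 sequence held 32 knockout counts and 1 wildtype count. Both windows over the Olfr599 sequence held 0 wildtype counts, with 11 and 16 in the knockout library. Over Olfr601 the windows held 33 and 11 knockout counts and 5 and 0 wildtype counts. The window over Olfr550 held 40 knockout and 20 wildtype counts. Over Olfr575 the 3 windows held 18, 20 and 15 knockout counts and 51, 52 and 46 wildtype counts, so the start of this gene carried the larger part of its 159 wildtype counts. Olfr648 had 21 knockout and 72 wildtype counts over its start although the gene as a whole stood at 0.63.

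Motifs known for Kaiso were then looked for in these 170 sequences on both strands. CGCG, the pair of adjacent CpGs it binds when methylated, was in 0 of 170, in 1.03% of 774 sequences of other Olfr genes and in 38.4% of the 27025 genes. TCCTGCNA, the unmethylated Kaiso site, was in 2 of 170 (1.18%), against 2.97% of other Olfr genes and 4.91% of all. Its core CTGCNA, which TCCTGCNA contains, was in 38.2% of the 170, against 34.5% of other Olfr genes and 48.3% of all. A match is a run of letters and not a site, and no match says only that the letters are not in this window of 300 bases.

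Other receptor clusters gave different mixes. Over the 917 other Olfr genes of the genome 266 had the minimum, of which 26.3% were higher and 31.6% lower, with a median of 0.39. The chromosome 2 genes had 14 higher and 23 lower of 53, with a median of -0.82 (-1.23 to 0.57). The genes near the major histocompatibility complex on chromosome 17 had 7 higher and 2 lower of 15, with a median of 0.74 (0.40 to 2.08). The intervals of these medians overlap that of the chromosome 7 genes, and with 1 library per genotype no difference between clusters was tested. Within the chromosome 7 set, class I genes had 16 higher and 13 lower of 63, with a median of 0.47 (0.22 to 0.67). Genes of high family number had 4 higher and 4 lower of 10, with a median of 0.19 (-1.55 to 2.28), an interval that holds the other. Summed over windows, class I genes had 23451 knockout and 13382 wildtype counts, a log2 ratio of 0.64 (0.58 to 0.70). Genes of high family number had 1533 and 1344, a log2 ratio of 0.022 (-0.19 to 0.24). The intervals of these summed ratios reflect counting error alone and not the spread between genes.

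Of 70 genes of the same stretch outside the family, 60 had the minimum, with 6 higher and 8 lower and a median of 0.24, and their median region held 480 fragments. Of 29 genes of olfactory signalling and receptor choice, a list that runs from Gnal, the olfactory G protein, to Emx2, 27 had the minimum. In 5 of them the knockout library was higher and in 0 lower, and the median was 0.26. The higher ones were Rtp1 (1.84, 1.22 to 2.51) and Rtp2 (1.63, 1.31 to 1.97), which carry receptors to the cell surface. They also included the channel subunit gene Cnga4 (1.21, 0.88 to 1.55) and the transcription factor genes Emx2 (1.21, 0.89 to 1.54) and Atf5 (1.06, 0.37 to 1.80). Kdm1a, a histone demethylase gene needed for receptor choice, had -0.95 (-1.23 to -0.67), and Adcy3, the adenylyl cyclase of olfactory cilia, had 0.35. Cnga2 had no listed window.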

How the data were processed

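MBD2-captured testis DNA of 1 Kaiso knockout and 1 wildtype mouse was read from a table of 100 bp windows. Bowtie2 2.2.6, edgeR and mm10 are named in the submitters' processing notes, and the column names are those of MEDIPS, per the file headers. The deposited counts are whole reads per window, and the deposited RPKM values gave 1 constant per library, taken as its reads. The CpG count and the relative methylation score of the authors were used as deposited. The log2 fold change of the authors runs wildtype over knockout, and only its offset of 0.13 was used. All 2537435 windows have a deposited p-value under 0.05, identical to the adjusted one. Another 10 columns of values were not used.

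Ratios are knockout over wildtype per library read, with Clopper-Pearson 95% intervals on counts divided by 4. A gene without counts in 1 library was set to a floor of 3 fragments, and 1 gene, under the minimum, needed it. Calls were tested on simulated data with known changes. Fragments were drawn with the counting error that the intervals assume, without the p-value filter or variation between animals. The simulation therefore checks the calculation and not the calls in these data. TMM came from edgeR 4.0.16, and the rest from Python 3.11.15 with scipy 1.17.1. No source used here gives the handling of duplicates and multiple alignments, so reads of near-identical receptor genes may be shared. Classes were taken from family names in the annotation, in place of a planned comparison of proteins.

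Genes were named by rule: up to 10 higher and 10 lower genes by the interval bound farthest from 0, the 3 with most fragments, the 3 with the shortest interval (the same 3), and 8 of known function. Genes near the limits, in runs and in families were named after their values were seen. The members and lists were chosen with earlier results of these data known. The alternatives cover scaling, region, window filters, minimum, fold and divisor.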

Additional observations from a re-analysis of the deposited data

How the results depend on the processing

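Across 18 alternatives, the 23 named genes that were called kept their direction wherever they had a value, and 13 of them had a value and were called under each one. Another 5, among them Olfr66 and Olfr6 over gene spans alone, had no value under at least 1 alternative. The settings of minimum, fold and divisor cannot change a ratio, and the scalings by a single constant were too small to turn a called one. The kept direction under these is therefore no support. The median log2 ratio of 0.47 turned to -0.19 with CpG-rich windows centred on 0 and was 1.08 with windows of a deposited p of at most 0.001. The summed log2 ratio of 0.60 turned to -0.064 under the same scaling, and was 0.33 with autosomal counts, 0.43 with TMM, 0.73 with the authors' offset, 0.32 within CpG classes, 0.70 over gene spans without flanks, 0.47 with 5 kb flanks and 1.14 with the strict p. The share of windows higher, 62.2%, was 48.3% with CpG-rich windows centred on 0, 68.0% over gene spans, 67.8% with windows of at least 20 counts and 80.6% with the strict p. The count of 17 lower genes was 26 with autosomal counts, 26 with CpG-rich windows centred on 0, 32 with 5 kb flanks, 7 with the strict p and 6 at a 3-fold limit. It was 25 with a minimum of 10 fragments and 24 with a divisor of 3, where 6.26% and 6.24% of all protein-coding genes were lower. Under both settings 21 genes were higher, so the larger side also depended on the minimum and the divisor. The count of 21 higher genes stayed within 1.5 times, from 15 to 30. A deposited p of at most 0.001 removes windows of small ratio by its construction, and the cause of the other shifts was not tested. No paired analysis was possible because each genotype has 1 library, and for the same reason no library could be left out. The lower genes had a median of 60 knockout and 159 wildtype counts, which widens their intervals.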

Other observations

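Runs of adjacent windows of 1 direction were sought only within the gene regions, so each lay at a receptor gene by construction. The longest runs, of 10 windows, were all higher in the knockout library and lay over Olfr550, Olfr599, Olfr601, Olfr606 and Olfr632. Over Olfr550, from 102578601 to 102579600, the windows held 57 to 120 knockout and 13 to 29 wildtype counts, and over Olfr632, from 103937401 to 103938400, 28 to 120 knockout and 11 to 54 wildtype counts. Olfr632 was called neither way at 0.73 because 4 of its 14 windows, outside this run, were lower.

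Among the 24 genes under the minimum, Olfr518 had 0 knockout and 46 wildtype counts in 3 windows. Olfr715 had 3 and 40 counts and Olfr486 had 3 and 34. Of the 505 windows, 6 held no knockout count and 3 no wildtype count.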
